A study of Mus musculus with 6 samples.

Results

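The 10 genes described here are effectors, regulators and target genes of the Hippo pathway, chosen by name from the 24062 genes in the count files. They are the transcriptional coactivators *Yap1* and *Wwtr1*, their DNA-binding partner *Tead1*, the kinases *Lats1* and *Lats2*, the upstream regulators *Nf2*, *Ajuba* and *Amotl2*, and the target genes *Ctgf* and *Cyr61*, for which the annotation has the newer symbols *Ccn2* and *Ccn1*. All 10 were found and all 10 passed the filter on low counts. The symbol *Taz* in the files is another gene on chromosome X and was not used for *Wwtr1*, whose protein is also called TAZ.

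Bulk RNA-seq had been made from mouse DRG/tumors (DRG, dorsal root ganglion), with 3 libraries for each of 2 genotypes on a background labelled C57BL/6-I129. The first group is Nf1fl/fl;DhhCre, in which Cre recombinase driven by the *Dhh* promoter deletes *Nf1* in Schwann cells and their precursors. The second group was also floxed for *Runx1* and *Runx3*, Runx1fl/fl;Runx3fl/fl;Nf1fl/fl;DhhCre by the methods of the study, while its sample labels leave out Nf1fl/fl, and it is called the double knockout below. All 6 animals thus carry DhhCre and, by those methods, floxed *Nf1*. Other cells of the tissue keep intact copies of each floxed gene. The tissue is labelled DRG in the first group and neurofibroma tumor in the second, so tissue and genotype cannot be told apart. The results text of the study instead calls the first group tumors and the second DRG/tumors. The markers run opposite to the tissue labels of the samples, since summed DRG sensory neuron markers were at 1290 to 2650 CPM (counts per 1000000 counted reads) in the libraries labelled DRG and at 6430 to 14500 CPM in those labelled neurofibroma tumor, and fibroblast and macrophage markers were higher in those labelled DRG. No age is given for these samples.

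In the Hippo pathway the kinases Stk3 and Stk4 activate Lats1 and Lats2, which phosphorylate Yap1 and the Wwtr1 protein and keep them out of the nucleus. Unphosphorylated Yap1 and Wwtr1 bind TEAD factors on DNA and raise transcription of genes such as *Ctgf* and *Cyr61*. In Schwann cells these coactivators and Tead1 take part in myelination, and *Nf2*, which encodes merlin, is the tumor suppressor lost in schwannoma. The activity of the coactivators is set largely by phosphorylation, which mRNA counts do not measure. Hippo regulators are known to act on *Pmp22*, the myelin gene that the study followed. The study looked up *Sox10*, *Egr2* and Hippo regulators in this same RNA-seq and found none significantly changed. Its thresholds for a changed gene were an FDR below 0.05 and more than 2-fold. It proposed that more replicates might be needed, or that these regulators might matter less for *Pmp22* after loss of *Nf1*. The comparison here asks again whether mRNA of Hippo genes differed between the genotypes.

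The libraries held from 12439296 to 16682194 counted reads, and 3 counts correspond to between 0.179 and 0.247 CPM, which was scaled with TMM factors of 0.95 to 1.04. *Runx1*, one of the deleted genes, had 131, 141 and 172 CPM in Nf1fl/fl;DhhCre replicates 1, 2 and 3 and 84.0, 78.9 and 185 CPM in those of the labelled double knockout, so that for this gene replicate 3 of the latter was not lower. Other cells of the tissue keep intact *Runx1*, so these counts do not test the deletion in Schwann cells. Summed DRG sensory neuron markers were also highest in that replicate (14500 CPM, against 6426 and 7436 CPM in replicates 1 and 2 of its group). The part of these cells in the *Runx1* level was not tested. *Runx3*, the other deleted gene, had 19.9, 15.1 and 29.9 CPM against 13.5, 10.3 and 12.1 CPM, lower in all 3 libraries of the labelled double knockout, replicate 3 included, although neither gene passed the test (adjusted p = 0.37 for *Runx1* and 0.104 for *Runx3*, limma-voom). Values of 3 libraries are given in this order throughout. The group is therefore called by its label. Without replicate 3 of the labelled double knockout none of the 10 genes described here passed the adjusted p in either direction (limma-voom), and the log2 fold changes of 5 of them without it are given below. In addition, the labels place 1 library in a different sequencing run and leave unclear whether it is replicate 2 or replicate 3 labelled double knockout. Nothing in the labels ties a library to a separate litter or extraction, so the p-values measure the spread between these samples.

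Because several of these genes are themselves targets of the coactivators, the TEAD motifs in their promoters are shown first. The TEAD motif GGAATG was sought on both strands in promoter windows of 300 bases, which run from 250 bases before a RefSeq transcription start to 50 after it (build GRCm38.p6). Windows for 8 of the 10 genes were matched, and those of *Tead1* and *Ctgf* were not. Of these 8 genes, 6 had the motif in at least 1 window (7 of 11 windows), beside 16.6% of all 27025 genes with a promoter window. Each line gives 30 bases on the strand of the gene, 5′ to 3′, with the motif in capitals, which reads CATTCC where it lies on the opposite strand.
Yap1, chr9:8004720-8004749: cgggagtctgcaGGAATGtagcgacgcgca
Wwtr1, chr3:57576029-57576058: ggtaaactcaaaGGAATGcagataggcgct
Cyr61, chr3:145650071-145650100: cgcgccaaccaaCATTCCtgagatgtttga
Amotl2, chr9:102717727-102717756: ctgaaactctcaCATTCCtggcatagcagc
Lats2, chr14:57746102-57746131: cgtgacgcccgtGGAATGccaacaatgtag
Ajuba, chr14:54577830-54577859: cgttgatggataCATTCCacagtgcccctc
Ajuba, chr14:54577808-54577837: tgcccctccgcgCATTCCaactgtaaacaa

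The motif began 141 bases upstream of the start in *Yap1*, 136 bases upstream of the first start in *Wwtr1*, 103 in *Cyr61* and 65 in *Amotl2*. The 2 matches in *Ajuba* began 186 and 164 bases upstream, and the one in *Lats2* lay 4 bases downstream of 1 of its 2 starts, while the window of the other start had no match. Because the design removes RUNX factors, the RUNX motif, spelled TGTGGT or TGCGGT, was sought in the same windows on both strands. It was found in *Amotl2* and *Nf2* only, 2 of the 8 genes, beside 25% of all genes with a window. The *Amotl2* match began 106 bases and those of *Nf2* 241 and 130 bases upstream of the start, and the window of a second *Nf2* start had no match.
Amotl2, chr9:102717686-102717715: tgagaggttattTGTGGTtcgctttgatcc
Nf2, chr11:4849765-4849794: agtacctcgTGCGGTgcagtcccggcctct
Nf2, chr11:4849657-4849686: gcgctcggagtgACCGCAtctacagccact

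A match of letters is not a binding site, and binding was not measured in the counts used here. The TEAD motif stood both in *Wwtr1*, which differed between the genotypes, and in *Yap1* and *Cyr61*, which did not pass the test.

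Of the 10 genes, 1 was lower in the libraries labelled double knockout at an adjusted p below 0.05, *Wwtr1*, and none was higher. Across all 15652 genes tested, 8.22% were lower and 11.1% were higher by the same rule. By limma-voom none of the 10 was a DEG, which also needs a change of more than 2-fold (DESeq2 made *Ctgf* one), whereas 5.36% of all genes were lower DEGs and 8.03% were higher DEGs. With edgeR's quasi-likelihood test and with DESeq2 none of the 10 was higher either. Without adjustment 2 of the 10 had a p below 0.05, *Wwtr1* and *Tead1*, beside 35.2% of all genes. The median log2 fold change of the 10 genes was -0.20, beside 0.02 over all genes tested, and 7 of the 10 were below 0.

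**Figure D1:**
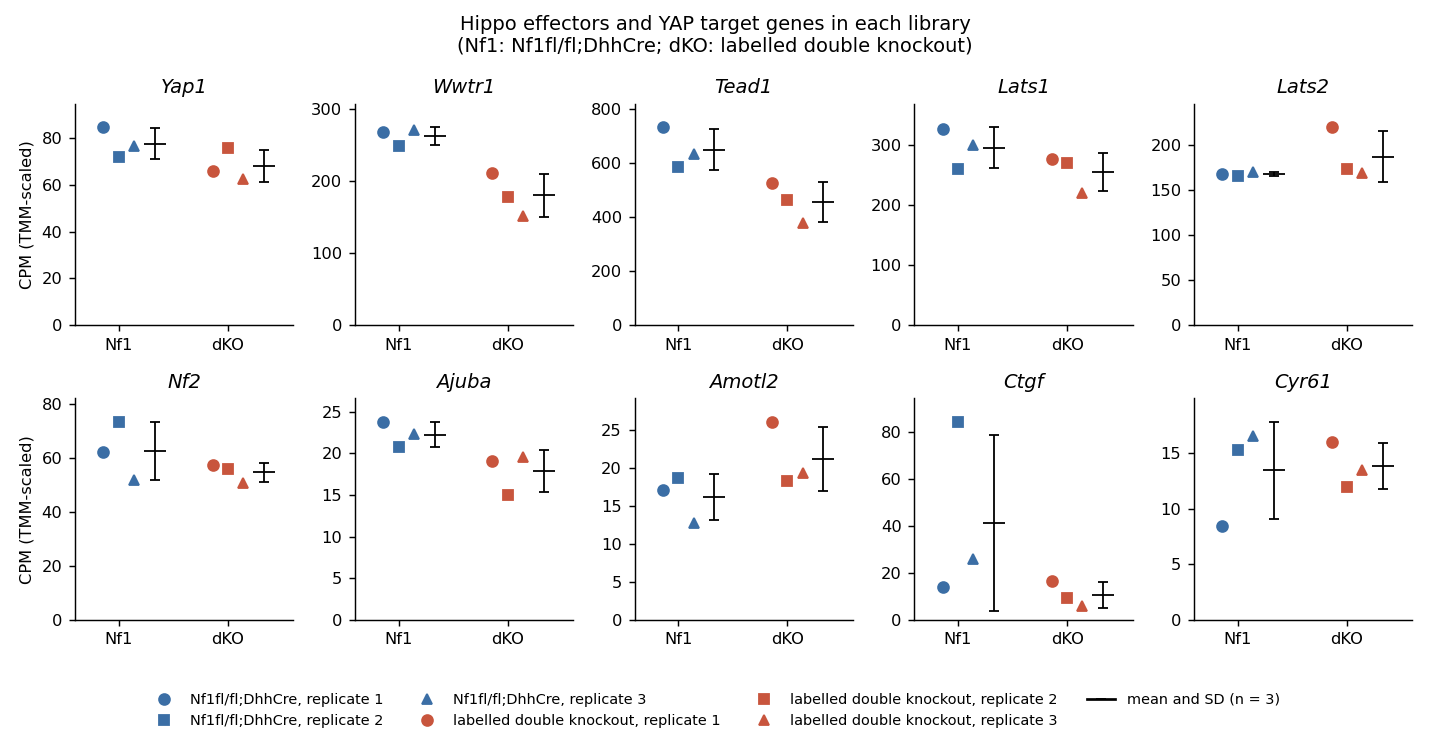
Level of each of the 10 genes in CPM, with each point 1 library, the marker shape its replicate number and the bar the mean with the SD of 3 libraries. In *Wwtr1*, *Tead1* and *Ajuba* all libraries labelled double knockout lie below all Nf1fl/fl;DhhCre libraries, and *Ctgf* has 1 Nf1fl/fl;DhhCre library at 84.2 CPM, far above the other 5.

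Of the coactivators, 1 fell and the other did not pass the test. Gene positions below are those of GENCODE M21 on build GRCm38. *Wwtr1* (chr3:57455649-57575910, minus strand) had 268, 249 and 271 CPM in Nf1fl/fl;DhhCre and 211, 178 and 151 CPM in the labelled double knockout. Every Nf1fl/fl;DhhCre library was higher than every library of the other genotype. The means were 263 ± 11.9 and 180 ± 29.8 CPM (SD, n = 3 each), a 1.46-fold decrease, and the fitted log2 fold change was -0.56 (SE 0.14, adjusted p = 0.0359, limma-voom). In bulk tissue, fewer cells that express a gene and less of its RNA per cell cannot be told apart. Over 7 other ways of scaling, filtering and testing *Wwtr1* stayed below the threshold, with an adjusted p from 0.00924 to 0.0427. With 1 library left out it passed in 1 of 6 limma-voom fits, the one without replicate 1 of the labelled double knockout, and without any of the other 5 libraries its adjusted p was 0.0738 to 0.144 (limma-voom). Leaving out replicate 3 of the labelled double knockout, the library with the highest *Runx1*, gave a log2 fold change of -0.44 (adjusted p = 0.0782, limma-voom), and leaving out replicate 2 gave -0.56 (adjusted p = 0.0948, limma-voom).

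*Yap1*, the other coactivator (chr9:7931999-8004596, minus strand), had 84.6, 71.8 and 76.6 CPM in Nf1fl/fl;DhhCre and 66.1, 75.6 and 62.6 CPM in the labelled double knockout. Replicate 2 of the labelled double knockout was above replicate 2 of Nf1fl/fl;DhhCre, so that the groups overlapped. The log2 fold change of -0.19 (SE 0.14, adjusted p = 0.357, limma-voom) had a 95% interval from -0.51 to 0.13. In the 6 fits without 1 library it ran from -0.26 to -0.11, the latter without replicate 1 of Nf1fl/fl;DhhCre. The log2 ratio of *Wwtr1* to *Yap1* within a library, which does not depend on scaling, was 1.76 ± 0.08 in the Nf1fl/fl;DhhCre libraries and 1.39 ± 0.24 in the others (SD, n = 3 each). The difference of -0.37 had p = 0.2 in a two-sided exact permutation test, in which 3 libraries against 3 cannot give less than 0.1. Replicate 1 labelled double knockout, at 1.67, was within the range of the Nf1fl/fl;DhhCre libraries, from 1.66 to 1.82.

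*Tead1*, the DNA-binding partner (chr7:112679318-112906807, plus strand), had 733, 585 and 633 CPM in Nf1fl/fl;DhhCre and 527, 463 and 378 CPM in the labelled double knockout. The groups did not overlap. The log2 fold change of -0.52 (SE 0.16, adjusted p = 0.0561, limma-voom) just missed the threshold, and its 95% interval ran from -0.89 to -0.16. It passed in 3 of 7 other settings, with DESeq2, with sample quality weights and with scaling by library size only, and in none of the 6 limma-voom fits without 1 library. Without replicate 3 of the labelled double knockout it was -0.39.

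Over the 6 libraries, *Wwtr1* and *Tead1* were the closest pair among the 10 genes, with a Pearson r of 0.97 between their log2 CPM values. The 6 points share their libraries and the difference between genotypes, so that r is given as a description only. *Yap1* was most like *Lats1* (r of 0.86) and least like *Cyr61* (r of -0.61). Among the 10221 other genes whose average log2 CPM was 3 or more, those with values most like *Wwtr1* were *Lgi4*, *Pnp* and *Pde8a*, each with an r of at least 0.99 over the 6 libraries. *Lgi4*, which encodes a secreted protein of Schwann cells needed for myelination, had 190, 184 and 199 CPM against 143, 118 and 97.0 CPM. The genes most like *Yap1* were *Celf1*, *Akr1b8* and *Arf2*, with r from 0.98 to 0.99.

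The LATS kinases did not pass the test, and their fitted values lay on opposite sides of 0. *Lats1* (chr10:7681214-7716460, plus strand) had 327, 260 and 299 CPM in Nf1fl/fl;DhhCre and 277, 269 and 219 CPM in the labelled double knockout. *Lats2*, itself a target gene of the coactivators (chr14:57689662-57758388, minus strand), had 167, 165 and 170 CPM in the first group and 219, 173 and 168 CPM in the second. In both genes the groups overlapped, and the *Lats2* libraries of the Nf1fl/fl;DhhCre group were the closest of any of the 10 genes, with an SD of 1.44% of the mean. The log2 fold changes were -0.22 (SE 0.14) for *Lats1* and 0.14 (SE 0.13) for *Lats2*, with adjusted p-values of 0.329 and 0.484 (limma-voom). *Lats1* was at -0.10 without replicate 3 of the labelled double knockout and at -0.11 without replicate 1 of Nf1fl/fl;DhhCre. *Lats2* was at 0.06 without replicate 1 of the labelled double knockout, its highest library, and at 0.22 without replicate 3.

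Within libraries, the log2 ratio of *Lats2* to *Lats1* was -0.97, -0.66 and -0.82 in the Nf1fl/fl;DhhCre group and -0.34, -0.64 and -0.38 in the libraries labelled double knockout. All 3 of the latter were higher, by 0.36 in the means, although the nearest libraries of the groups, at -0.66 and -0.64, almost met. In an exact permutation test this had a two-sided p = 0.1, the smallest that 3 against 3 allow. After adjustment over the 3 ratios compared, the permutation p was 0.15.

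**Figure D2:**
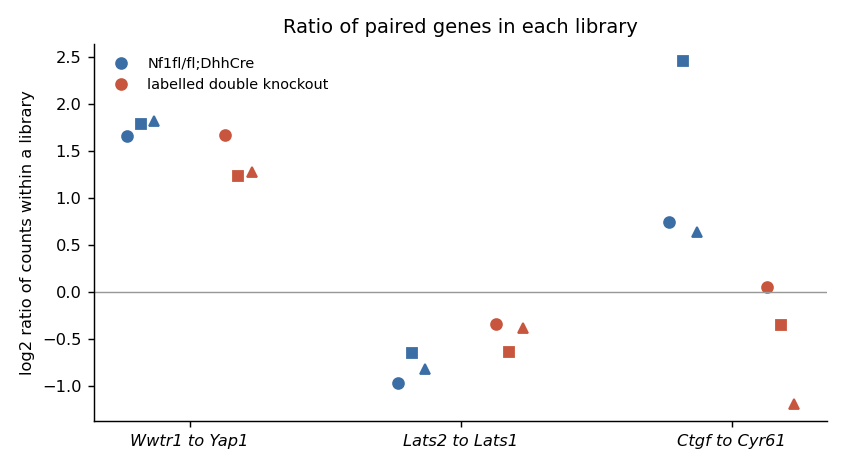
Log2 ratio of the counts of *Wwtr1* to *Yap1*, *Lats2* to *Lats1* and *Ctgf* to *Cyr61* within each library, with circles, squares and triangles for replicates 1, 2 and 3. The ratio of *Lats2* to *Lats1* is higher and that of *Ctgf* to *Cyr61* lower in all 3 libraries labelled double knockout, whereas 1 such library lies among the Nf1fl/fl;DhhCre values of *Wwtr1* to *Yap1*.

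*Nf2* (chr11:4765845-4849536, minus strand) encodes merlin, which promotes activation of the LATS kinases at the cell cortex. Its values were 62.3, 73.2 and 51.8 CPM against 57.5, 55.8 and 50.7 CPM in the labelled double knockout. The values overlapped, and the fitted log2 fold change was -0.18 (SE 0.16, adjusted p = 0.468, limma-voom). Without replicate 2 of Nf1fl/fl;DhhCre, the highest library, it was -0.02. *Ajuba* (chr14:54567472-54577558, minus strand) encodes a LIM-domain protein that binds and inhibits LATS. Its values, 23.7, 20.7 and 22.3 CPM against 19.1, 15 and 19.6 CPM, did not overlap, but the log2 fold change of -0.31 (SE 0.17, adjusted p = 0.252, limma-voom) did not pass. In the 6 fits without 1 library it ran from -0.38 to -0.19, the latter without replicate 2 of the labelled double knockout. *Amotl2* (chr9:102716672-102733418, plus strand) encodes an angiomotin that holds Yap1 in the cytoplasm and is also a target gene. It had 17.1, 18.6 and 12.8 CPM against 26.0, 18.2 and 19.3 CPM, which overlapped, and the fitted difference of 0.38 on the log2 scale (SE 0.22, adjusted p = 0.265, limma-voom) was the highest of the 10 genes. *Wwtr1*, *Tead1* and *Ajuba* were thus the 3 of 10 genes in which the libraries labelled double knockout lay wholly below the others, and in none did they lie wholly above. Over all genes tested these shares were 20.5% and 21.8%.

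The classical target genes *Ctgf* and *Cyr61* encode secreted matricellular proteins of one family, and neither passed the limma-voom test. *Ctgf* (chr10:24595442-24598683, plus strand) had 14.1, 84.2 and 25.8 CPM in Nf1fl/fl;DhhCre (204, 1414 and 402 counts). The labelled double knockout had 16.6, 9.29 and 5.88 CPM (208, 113 and 89 counts). Replicate 2 of Nf1fl/fl;DhhCre held over 3 times the level of the next library, and replicate 1 labelled double knockout was above replicate 1 of Nf1fl/fl;DhhCre. The log2 fold change of -1.75 (SE 0.77, adjusted p = 0.154, limma-voom) was the largest in size of the 10 genes and had a 95% interval from -3.57 to 0.06. Without replicate 2 of Nf1fl/fl;DhhCre it was -0.98, and without replicate 3 of the labelled double knockout -1.35. With sample quality weights it was -1.05, and with DESeq2 it was -1.98 (adjusted p = 0.00854, DESeq2). Replicate 2 of Nf1fl/fl;DhhCre also held more RNA of the 8 skeletal muscle marker genes than the other Nf1fl/fl;DhhCre libraries (2209 CPM in sum, against 46.3 and 5.52). Replicate 2 labelled double knockout had 11420 CPM of these markers and 9.29 CPM of *Ctgf*. Other marker sums also set replicate 2 of Nf1fl/fl;DhhCre apart from replicates 1 and 3 of its group. It was highest for perineurial (1416 CPM, against 1021 and 740.9), fibroblast (9879 against 9207 and 9613) and sensory neuron markers (2651 against 1393 and 1293). For macrophage markers it was lowest (749.5 against 1166 and 1771 CPM). The part of any of these cells in the level of *Ctgf* was not tested.

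*Cyr61* (chr3:145646976-145649981, minus strand) had 8.46, 15.3 and 16.5 CPM in Nf1fl/fl;DhhCre and 16.0, 11.9 and 13.5 CPM in the labelled double knockout. The groups overlapped, with means of 13.4 ± 4.36 and 13.8 ± 2.07 CPM (SD, n = 3 each). On the log2 scale the difference was 0.07 (SE 0.29, adjusted p = 0.887, limma-voom), with a 95% interval from -0.61 to 0.76. It was -0.01 when libraries were scaled by size only and -0.19 without replicate 1 of Nf1fl/fl;DhhCre. The log2 ratio of *Ctgf* to *Cyr61* was 0.74, 2.46 and 0.64 in the first group and 0.05, -0.36 and -1.19 in the second. All of the latter were lower, by 1.78 in the means, with p = 0.1 in the two-sided exact permutation test, the smallest possible, and 0.15 after adjustment over the 3 ratios. Of the exonic bases of *Ctgf*, 23.2% overlap exons of Gm15270 on the opposite strand, and whether the counting used strand is not given in the sources used here.

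To compare levels between genes, CPM was divided by the kilobases of merged exons in GENCODE M21. In the Nf1fl/fl;DhhCre libraries *Wwtr1* was highest, at 55.0 ± 2.5 CPM per kb, followed by *Tead1* at 47.9 ± 5.56, *Lats1* at 40.5 ± 4.61 and *Lats2* at 24.0 ± 0.361 CPM per kb (SD, n = 3 each). *Ctgf* at 14.5 ± 13.1, *Nf2* at 9.15 ± 1.57, *Yap1* at 8.39 ± 0.699 and *Cyr61* at 6.65 ± 2.15 CPM per kb came next. *Ajuba* was at 6.1 ± 0.412 and *Amotl2* at 2.57 ± 0.479 CPM per kb. Between neighbours in this order, only *Lats1* and *Lats2*, and *Ajuba* and *Amotl2*, did not overlap in their 3 libraries. *Wwtr1* mRNA thus stood above *Yap1* mRNA in every library, at 31.6 to 56.7 against 6.76 to 9.14 CPM per kb.

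In the libraries labelled double knockout the order per kb was *Wwtr1* (37.7 ± 6.29), *Lats1* (34.9 ± 4.31), *Tead1* (33.6 ± 5.51) and *Lats2* (26.8 ± 4.03 CPM per kb, SD, n = 3 each), and each overlapped the next. A gap without overlap followed before *Nf2* (8.01), *Yap1* (7.36) and *Cyr61* (6.84), and a second one before *Ajuba* (4.91), *Ctgf* (3.7) and *Amotl2* (3.37 CPM per kb). The mean of *Ctgf* was above those of *Nf2*, *Yap1* and *Cyr61* in the first group and below them here. Without replicate 2 of Nf1fl/fl;DhhCre, left out after its value was seen, the first group's mean of *Ctgf* was 6.97 CPM per kb, below *Yap1* (8.71) and *Nf2* (8.36) and still above *Cyr61* (6.18). The exon length of *Lats2* includes 42.4% that overlaps another annotated gene, Gm49361, which is not among the symbols counted.

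**Figure D3:**
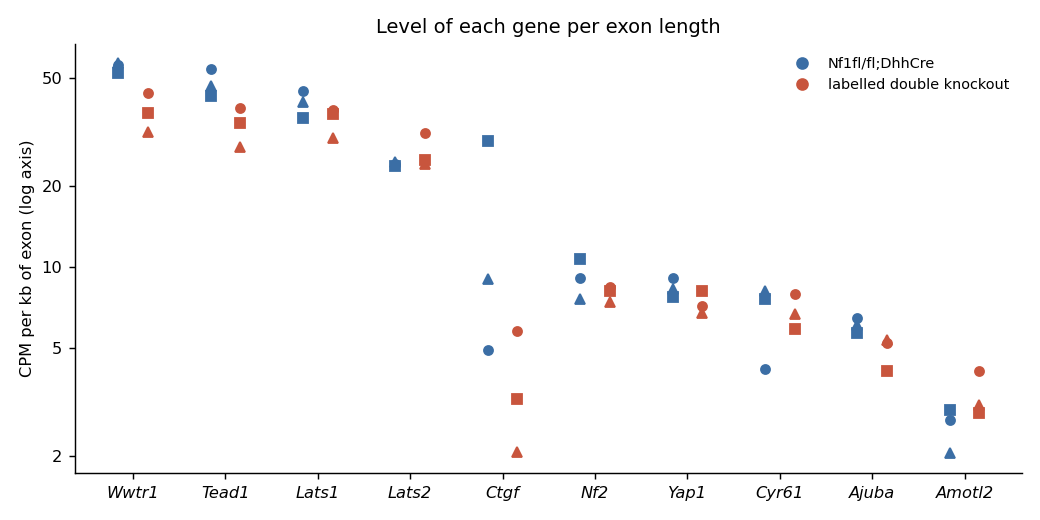
Level of the 10 genes in each library as CPM per kilobase of merged exons on a log axis, ordered by the mean of the Nf1fl/fl;DhhCre libraries, with circles, squares and triangles for replicates 1, 2 and 3. *Wwtr1*, *Tead1*, *Lats1* and *Lats2* form an upper group from 23.7 to 56.7 CPM per kb, and *Ctgf* alone spans from 2.06 to 29.4.

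The other genes of the pathway were taken from 4 lists, 43 genes in all, of which 41 passed the filter. Of these, 10 fell and 2 rose with the label double knockout at an adjusted p below 0.05, beside the 8.22% and 11.1% of all genes. Their median log2 fold change was -0.46. None of the 5 TEAD factors and cofactors passed the test with limma-voom, edgeR's quasi-likelihood test or DESeq2, and 0 of 5 had an unadjusted p below 0.05, beside 35.2% of all genes. *Tead4* was low, at 0.624, 3.69 and 0.577 CPM against 2.71, 4.93 and 2.18 CPM, and its fitted difference was 1.36 (SE 0.73, adjusted p = 0.229, limma-voom).

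In the core kinase cassette, the enzymes and adaptors that activate LATS and their close relatives, 4 of 10 genes fell and none rose, beside 8.22% lower among all genes, and 7 of 10 were lower without overlap between the genotypes, beside 20.5%. *Stk3* was at 73.3, 71.4 and 82.2 CPM against 56.9, 47.0 and 55.7 CPM (log2 fold change -0.51, SE 0.14, adjusted p = 0.0426, limma-voom). Its paralog *Stk4* was at 92.2, 80.4 and 111 CPM against 63.4, 61.8 and 59.8 CPM, a change of -0.60 (SE 0.15). *Mob1a*, an adaptor that binds and activates LATS, had the largest decrease of the cassette, from 28.5, 18.9 and 26.3 CPM to 13.1, 10.4 and 14.5 CPM (-0.92, SE 0.24). *Stk38*, a kinase related to LATS, changed by -0.62 (SE 0.15). The second adaptor gene *Mob1b* did not pass, at 50.4, 35.9 and 41.1 CPM against 44.7, 50.3 and 24.0 CPM. The median over the 10 genes was -0.54. In the fits without 1 library these calls were mostly lost, and *Stk4* and *Mob1a* passed in 1 of 6 limma-voom fits, *Stk3* and *Stk38* in none.

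Among 10 upstream regulators, 1 rose and 1 fell, shares near the 11.1% higher and 8.22% lower of all genes. *Fat4*, an atypical cadherin that acts as a receptor in tissue growth control, had 27.7, 28.1 and 23.5 CPM in Nf1fl/fl;DhhCre and 50.7, 63.2 and 57.3 CPM in the labelled double knockout. The increase of 1.11 on the log2 scale (SE 0.16, adjusted p = 0.00974, limma-voom) passed the 2-fold limit, and it passed the adjusted p in each of the 6 fits without 1 library. *Limd1*, of the same family of LATS inhibitors as *Ajuba*, fell from 153, 138 and 140 CPM to 112, 82.8 and 75.6 CPM (-0.70, SE 0.16, adjusted p = 0.0287, limma-voom), and passed in 1 of those 6 fits. *Frmd6*, which encodes a relative of merlin, was at 197, 142 and 190 CPM against 135, 93.3 and 110 CPM and just missed the threshold (adjusted p = 0.054, limma-voom).

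Of 18 other genes commonly used as a readout of YAP activity, 16 were tested, 5 were lower and 1 was higher, beside 8.22% and 11.1% of all genes, and their median log2 fold change was -0.63. *Axl*, a receptor tyrosine kinase, had 576, 576 and 578 CPM in Nf1fl/fl;DhhCre and 290, 163 and 193 CPM in the labelled double knockout. This was the largest decrease among the genes of the list that passed, -1.47 (SE 0.20, adjusted p = 0.00936, limma-voom), and it passed in each of the 6 fits without 1 library. *Igfbp3*, an IGF-binding protein, was at 43.1, 79.2 and 61.8 CPM against 28.7, 19.1 and 19.9 CPM (-1.44, SE 0.28), and *Myof*, a membrane-repair protein of the ferlin family, at 129, 102 and 143 CPM against 68.9, 37.2 and 42.6 CPM (-1.37, SE 0.24). *Nt5e*, the ectoenzyme CD73, went from 80.8, 51.4 and 78.4 CPM to 47.6, 22.1 and 34.2 CPM (-1.05, SE 0.30) and was just inside the threshold (adjusted p = 0.0495, limma-voom), which it missed with edgeR's quasi-likelihood test (adjusted p = 0.0564). *Ptpn14*, a phosphatase that also restrains Yap1, changed by -0.47 (SE 0.12). In the fits without 1 library *Myof* passed in 5 of 6, *Igfbp3* in 4, *Nt5e* in 2 and *Ptpn14* in 0.

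*Asap1*, an activator of the GTPase activity of Arf proteins, went the other way, from 110, 104 and 111 CPM to 180, 206 and 325 CPM (1.09, SE 0.22, adjusted p = 0.02, limma-voom), and passed in 5 of the 6 fits. *Rbms3* was also higher, at 185, 234 and 183 CPM against 280, 305 and 503 CPM, and just missed the threshold (0.82, SE 0.24, adjusted p = 0.0508, limma-voom). Of the 16 tested, 7 were lower and 3 higher without overlap between the genotypes, beside 20.5% and 21.8% of all genes. *Ankrd1*, a target that is also a muscle gene, was at most 0.706 CPM (11 counts) in any library and was not tested, and neither was *Foxf2*, at 1.53, 3.04 and 0.641 CPM against 0.478, 0 and 0.33 CPM. *Axl*, *Igfbp3*, *Myof* and *Nt5e* were DEGs and lower, and *Asap1* was a DEG and higher. *Ctgf* and *Cyr61* were thus not among the target genes that passed with limma-voom, while *Ctgf* passed with DESeq2.

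**Figure D4:**
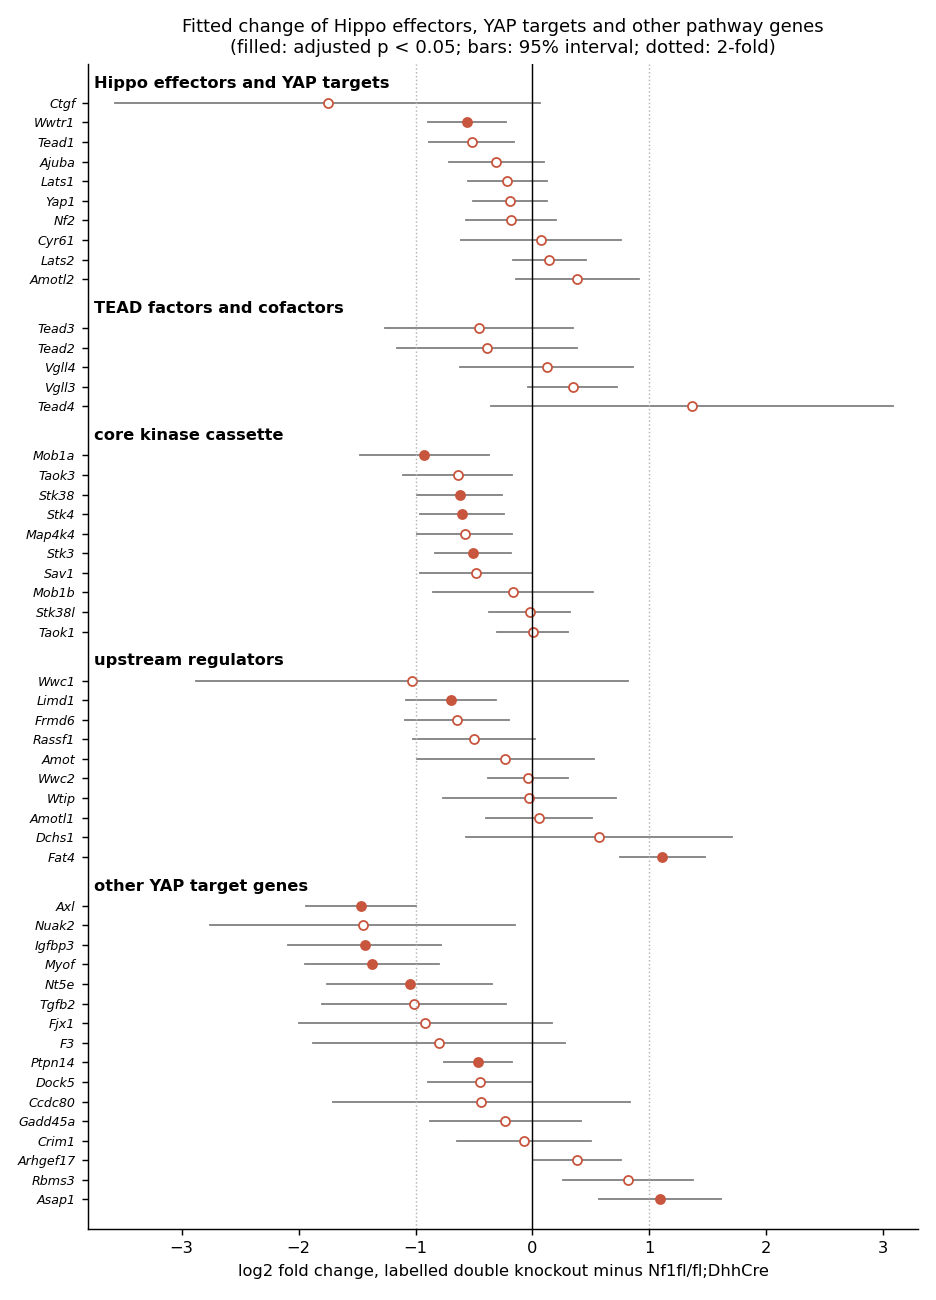
Log2 fold change of the 10 genes and of 41 other pathway genes, labelled double knockout minus Nf1fl/fl;DhhCre, with 95% intervals from limma-voom and filled circles for an adjusted p below 0.05. *Wwtr1* is the only filled circle in the top group, whereas *Axl*, *Igfbp3* and *Myof* lie below -1.3 and *Fat4* and *Asap1* above 1 in the lower groups.

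Marker genes of other cells moved with genotype in the same libraries. Unless stated otherwise, genes called lower or higher in this and the next paragraph had an adjusted p below 0.05 (limma-voom). By the same rule 8.22% of all genes tested were lower and 11.1% were higher. Fibroblast markers, whose cells express *Ctgf*, *Axl* and other target genes, were lower in 6 of 8 genes, with summed levels of 9210 to 9880 CPM in the Nf1fl/fl;DhhCre libraries and 3420 to 5640 CPM in those labelled double knockout. Macrophage markers were lower in 10 of 12 genes (750 to 1770 CPM against 136 to 327 CPM), and DRG sensory neuron markers were higher in 14 of 15 (1290 to 2650 CPM against 6430 to 14500 CPM). Markers of myelinating Schwann cells were higher in 8 of 9 genes (5010 to 5890 CPM against 11100 to 14600 CPM). General Schwann cell markers overlapped, with summed levels of 1270 to 1450 CPM against 1240 to 1710 CPM and 1 of 6 genes higher, *S100b*. Of the immediate-early genes, which respond to handling and share that response with *Cyr61*, 2 of 8 were lower, *Jun* and *Egr1*. All 8 together summed to 314 to 391 CPM against 204 to 225 CPM.

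Perineurial markers were lower in 1 of 3 genes, *Cldn1*, beside 8.22% of all genes, and all 3 together summed to 741 to 1420 CPM against 357 to 590 CPM. Endothelial markers passed in 0 of 8 genes (154 to 215 CPM against 132 to 269 CPM), with 2 of the 8 at an unadjusted p below 0.05 by limma-voom and edgeR's quasi-likelihood test, where limma-voom gave 35.2% of all genes, and 1 past the adjusted p with DESeq2. Mural cell markers passed in 2 of 7 genes, with *Rgs5* higher and *Cspg4* lower, beside 11.1% and 8.22% of all genes. All 7 together summed to 411 to 440 CPM against 348 to 530 CPM. Skeletal muscle markers varied most within groups (5.52 to 2210 CPM against 51.4 to 11400 CPM), 0 of 8 passed with any of the 3 tools or had an unadjusted p below 0.05, beside the same 35.2%, and among them *Myh4* and *Tnnc2* were at 0 in replicate 3 of Nf1fl/fl;DhhCre. No marker of any list was at 0 in all libraries. The part of these cells in the levels of *Wwtr1*, *Ctgf* and the other genes above was not tested.

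**Figure D5:**
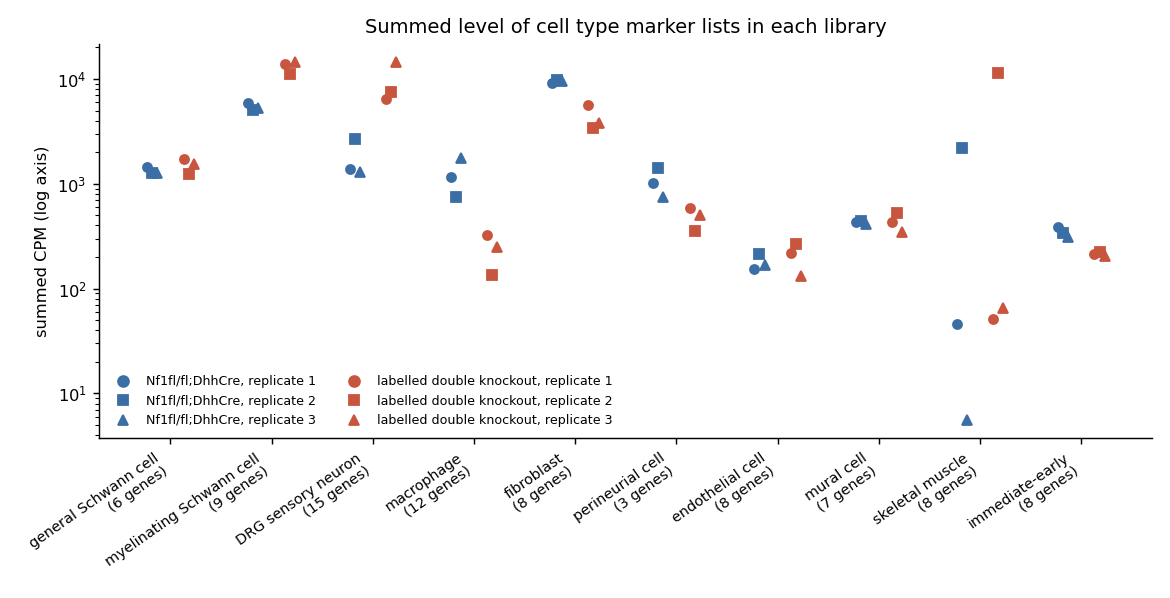
Summed CPM of each marker list in each library on a log axis, with circles, squares and triangles for replicates 1, 2 and 3. Fibroblast and macrophage sums are lower and sensory neuron and myelinating Schwann cell sums higher in all 3 libraries labelled double knockout, and skeletal muscle sums are highest in replicate 2 of each genotype.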

How the data were processed

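RNA from 6 mouse DRG/tumors was amplified (NuGEN Ovation) and made into Nextera XT libraries. The authors aligned paired-end reads to mm10 with TopHat and deposited raw counts of reads per gene from featureCounts, without normalization; the gene annotation, the use of strand and the treatment of multiply aligned reads are not given in the sources used here. Amplified reads are not independent molecules, so count floors cover counting error only.

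Low counts were removed by filterByExpr, whose count minimum is 10 and total minimum 15. With TMM factors, limma-voom was fitted to the 15652 genes left, with a term for genotype alone (R 4.3.3, edgeR 4.0.16, limma 3.58.1), with Benjamini-Hochberg adjustment. CPM used TMM-scaled library sizes. Ratios within a library used a prior count of 0.5 and an exact permutation test. The steps were tested on simulated data. Within a genotype, pairs of libraries had chi-square values per degree of freedom between 22.8 and 142, so none was a copy of another. Positions and exon lengths came from GENCODE M21 and promoter windows from RefSeq. For some libraries the sample title and the count column name different mice of the same genotype. Replicate numbers were given in accession order and do not pair mice.

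The 10 genes and the lists of pathway and marker genes were chosen with earlier results of these data known. Named were all 10 genes, all other pathway genes that passed the adjusted p, others as defining or untested genes, and the 3 genes most like *Yap1* and *Wwtr1*. *Mob1b*, *Tead4*, *Frmd6*, *Rbms3* and single marker genes were chosen after their values were seen. Alternatives were DESeq2 size factors, library size only, CPM over 1 in 3 or more libraries as the filter, no filter, edgeR's quasi-likelihood test, DESeq2 1.42.0, sample quality weights, a prior count of 2 for the ratios and leaving out each library. Figures were drawn with matplotlib 3.10.9.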

Additional observations from a re-analysis of the deposited data

How the results depend on the processing

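Under 7 other settings with all 6 libraries, no call of the 10 genes was lost. *Tead1* passed the adjusted p with library size scaling (log2 fold change -0.60), DESeq2 (-0.52) and sample quality weights (-0.54), and *Ctgf* with DESeq2 (-1.98), so that lower calls numbered 2, 3 and 2 under these settings, with 1 DEG under DESeq2. *Cyr61* was on the other side of 0 with library size scaling (-0.0083) and without replicate 1 of Nf1fl/fl;DhhCre (-0.19). Library size scaling moved the median of all genes from 0.02 to -0.06 and the share of calls that were higher from 57.3% to 50.7% (1521 higher and 1478 lower). Of the other Hippo pathway genes 8 instead of 5 were lower with library size scaling, DESeq2 and quality weights. Of the other YAP target genes, 2 instead of 1 were higher with edgeR's quasi-likelihood test, DESeq2 and quality weights, and 3 instead of 5 were lower with no filter, where *Nt5e* and *Ptpn14* missed the threshold, *Nt5e* also with the quasi-likelihood test. All genes lower numbered 2088 with DESeq2 instead of 1287. Why these values moved was not tested.

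Leaving out 1 library, which leaves fewer samples, gave *Wwtr1* from -0.65 to -0.44 and *Cyr61* from -0.19 to 0.29. Lower calls ran from 0 to 1 among the 10 genes, from 0 to 5 among the other Hippo pathway genes and from 2 to 5 among the other YAP target genes, with 0 to 2 of the latter higher. All genes ran from 193 to 1654 higher and 190 to 1388 lower, and DEGs from 181 to 1304 higher and 181 to 1028 lower; the lowest counts were without replicate 1 of Nf1fl/fl;DhhCre. The share of calls that were higher, 57.3% with all libraries, was 67.2%, 67.2% and 69.1% without replicate 1, 2 or 3 labelled double knockout and 50.4% without replicate 1 of Nf1fl/fl;DhhCre. No paired analysis was possible because the labels give no number shared between the genotypes. With 3 libraries against 3, a p that misses the threshold does not show that levels were alike.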
